A study of Homo sapiens with 11 samples.

Results

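The NBPF (neuroblastoma breakpoint family) genes are a human segmental duplication family, here the 10 members NBPF1, NBPF8, NBPF9, NBPF10, NBPF11, NBPF12, NBPF14, NBPF15, NBPF19 and NBPF20. They were followed across enhanced crosslinking and immunoprecipitation (eCLIP) of RPS19, which belongs to the 40S ribosomal subunit, through every enriched window of at most 100 bases whose deposited gene name is one of the members. Such windows made up 671 of 86567 windows (0.775%) listed for the R62W protein, 738 of 93331 (0.791%) for R101H and 179 of 15402 (1.16%) for WT. Together these were 801 distinct NBPF windows of 122708 windows in any list. The windows were selected on their enrichment over input, and the members were chosen with these values in view, so enrichment is a description here and carries no test.

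The immunoprecipitates (IP) came from HEK293T cells, a human embryonic kidney line, transfected with plasmids for V5-tagged RPS19 and precipitated with an antibody to V5. There were 3 IP samples of RPS19 with the Diamond-Blackfan anemia substitution R62W, 2 of the substitution R101H and 3 of the wild-type protein (WT), and all 3 proteins were overexpressed beside the cells' own RPS19. The 3 size-matched input samples came from untransfected cells without antibody, so plasmid and IP cannot be told apart in any enrichment value. Each list was made from all IP samples of its group, and which of the inputs each list used is not stated in the sources used here.

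NBPF genes code for proteins of poorly known function built from Olduvai (DUF1220) domains, whose coding blocks are repeated in tandem along the genes. The family expanded strongly in the human lineage, mostly by duplication within 1q21 on chromosome 1, and its copies are nearly identical over long stretches. A short read from one copy can therefore match others, and the sources used here do not say how such reads were placed.

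The copies' likeness could be read directly where a listed window lay in a RefSeq promoter entry on GRCh38.p14, which 5 members allowed. The pairs below are shown because they set a listed window beside the stretch of another NBPF gene that resembles it. Each line runs 5′ to 3′ on the gene's strand, and capitals mark bases that differ within a pair. The first pair is from a 5′ UTR window of NBPF14 at chr1:148595718-148595803, minus strand, and from NBPF10.
NBPF14 chr1:148595774-148595803: ttgatttcaccagtttttaacccatcatat
NBPF10 chr1:146144826-146144855: ttgatttcaccagtttttaacccatcatat
The second pair is from the adjoining 5′ UTR window of NBPF14 at chr1:148595804-148595890.
NBPF14 chr1:148595804-148595833: ctgacatccctcagtcctGattaaaccgat
NBPF10 chr1:146144856-146144885: ctgacatccctcagtcctCattaaaccgat
The third pair is from the outermost listed 5′ UTR window of NBPF15, minus strand, and from NBPF8, plus strand.
NBPF15 chr1:144461620-144461647: gggaccctgaggagccagctggcGcagg
NBPF8 chr1:120415039-120415066: gggaccctgaggagccagctggcTcagg
The same 28 bases of NBPF15 differed from the best stretch of NBPF9 at 5 positions (82.1%) when compared without gaps. Most of these positions lay side by side near the end, where NBPF9 had the same bases shifted by 1. Counted without gaps, such a shift gives several differences, so this value does not show how alike the copies were. Over the whole windows, NBPF14 and NBPF10 were identical across 86 bases in the first and differed at 1 of 87 bases in the second (98.9%). NBPF10 itself had no listed window in any list, and no window of any gene was listed within its RefSeq span at chr1:146064699-146144804. The printed NBPF10 stretches lie beyond the end of this span, so the search of the span does not cover them. The first NBPF14 window was listed in all 3 groups, with replicate log2 odds ratios of IP over input of 2.51, 2.90 and 3.80 for R62W, 3.42 and 3.69 for R101H, and 1.62 and 3.87 in the 2 WT samples in which it passed. The groups overlapped, and the reads behind the window would match NBPF10 as well over these bases.

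The 9 members with listed windows all lie on chromosome 1, and 3 of them, NBPF14, NBPF19 and NBPF20, carried most of the family's windows. NBPF20 (ENSG00000162825.16, chr1:145289900-145425603, minus strand) had 150 windows for R62W, 176 for R101H and 54 for WT. NBPF19 (ENSG00000271383.8, chr1:149475045-149556361, plus strand) had 120 for R62W, 131 for R101H and 38 for WT. NBPF14 (ENSG00000270629.6, chr1:148531385-148596011, minus strand) had 114 for R62W, 117 for R101H and 49 for WT. These 3 genes held 57.2% of NBPF windows for R62W, 57.5% for R101H and 78.8% for WT. NBPF12 followed with 71, 72 and 17 windows for R62W, R101H and WT. The other 5 listed members had 30 to 54 windows for R62W, 43 to 64 for R101H and 1 to 6 for WT. NBPF8, whose exons the deposited annotation calls lncRNA exons, had 44 of its 47 R62W windows, 43 of its 46 R101H windows and its 6 WT windows in that class.

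**Figure D1:**
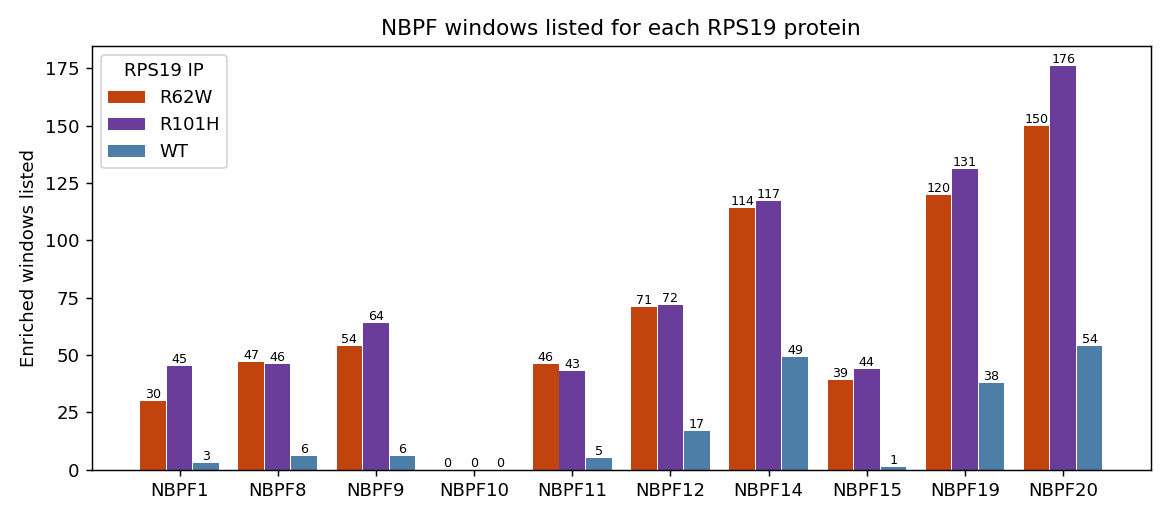
Number of enriched windows listed per NBPF member, with bars for R62W, R101H and WT from left to right and the count above each bar. NBPF20, NBPF19 and NBPF14 had the most windows in every list, NBPF10 had 0, and WT had the shortest bar for each member with a window.

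Per RefSeq gene length, introns included, NBPF14 had the densest windows, with 17.6 per 10 kb for R62W, 18.1 for R101H and 7.58 for WT. NBPF19 had 14.8, 16.1 and 4.67 per 10 kb, and NBPF20 had 11.1, 13.0 and 3.98, in the order R62W, R101H and WT. NBPF1, the member farthest from the 1q21 cluster, had 5.87 per 10 kb for R62W, 8.80 for R101H and 0.587 for WT. It was lowest among the listed members for R62W, while NBPF8 was lowest for R101H (8.42) and NBPF15 for WT (0.248). List lengths have no replicate spread, and the lists as a whole differed too. The NBPF count for R62W was 3.75 times that for WT, against 5.62 times over all windows, and the count for R101H was 4.12 times that for WT, against 6.06 times. No NBPF window was listed for WT alone. All 179 WT windows were in both other lists, while 429 windows were shared by R62W and R101H but absent from WT, 63 were listed for R62W alone and 130 for R101H alone. A window missing from a list was not thereby measured as 0.

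Enrichment values of NBPF windows were high relative to the lists, and the input counts beneath them were low. The median log2 odds ratio of NBPF windows was 3.34 for R62W, 3.71 for R101H and 3.31 for WT, against 1.90, 2.00 and 2.03 over all listed windows. The median pooled IP count of an NBPF window was 47 for R62W, 46 for R101H and 35 for WT, against 47, 48 and 49 over all windows. The median pooled input count was 4, 3 and 3, against 12, 11 and 11 over all windows. Pooled counts may cover different numbers of samples in different lists, so they are not like for like between lists. At most 5 input reads stood behind 60.8% of NBPF windows for R62W, 72.1% for R101H and 74.9% for WT, where all windows had 21.5%, 24.0% and 29.5%. Summed over NBPF windows, IP counts came to 37692 for R62W, 40943 for R101H and 7722 for WT. Of all listed windows' IP counts that was 0.521%, 0.567% and 0.320%, so WT had the largest share of windows and the smallest share of reads. The sums come from 3, 2 and 3 IP samples and lists of unequal length, without library totals, so they do not compare the groups. The shares also depend on a few very deep windows. The deepest held 94727 of 7234584 IP counts for R62W, 62515 of 7221756 for R101H and 112466 of 2414455 for WT.

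Among members, the same 3 genes had the highest medians for both substitutions. For R62W the median log2 odds ratio was 3.84 over NBPF20 windows, 3.77 over NBPF19 and 3.76 over NBPF14, and the lowest was 2.08 over NBPF15. For R101H it was 4.37 over NBPF14, 4.34 over NBPF20 and 4.13 over NBPF19, and again lowest over NBPF15 at 2.13. NBPF12 stood next in both lists, at 3.01 and 3.38. For WT the values were 3.71 over NBPF20, 3.54 over NBPF19 and 3.29 over NBPF14, with NBPF1 lowest at 2.41. NBPF15 ranked first for WT at 3.79, but that is 1 coding window, chr1:144427904-144427990, with 24 IP reads and 1 input read. In each list all 8 of 8 pairs of genes next to each other in this order overlapped in the range from the median lowest to the median highest replicate value. Neighbours are the closest genes by construction, so this overlap does not bear on genes further apart. For R101H the range was 3.86 to 4.78 over NBPF14 and 1.84 to 2.66 over NBPF15. For R62W it was 3.08 to 4.81 over NBPF20 and 1.66 to 2.49 over NBPF15.

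**Figure D2:**
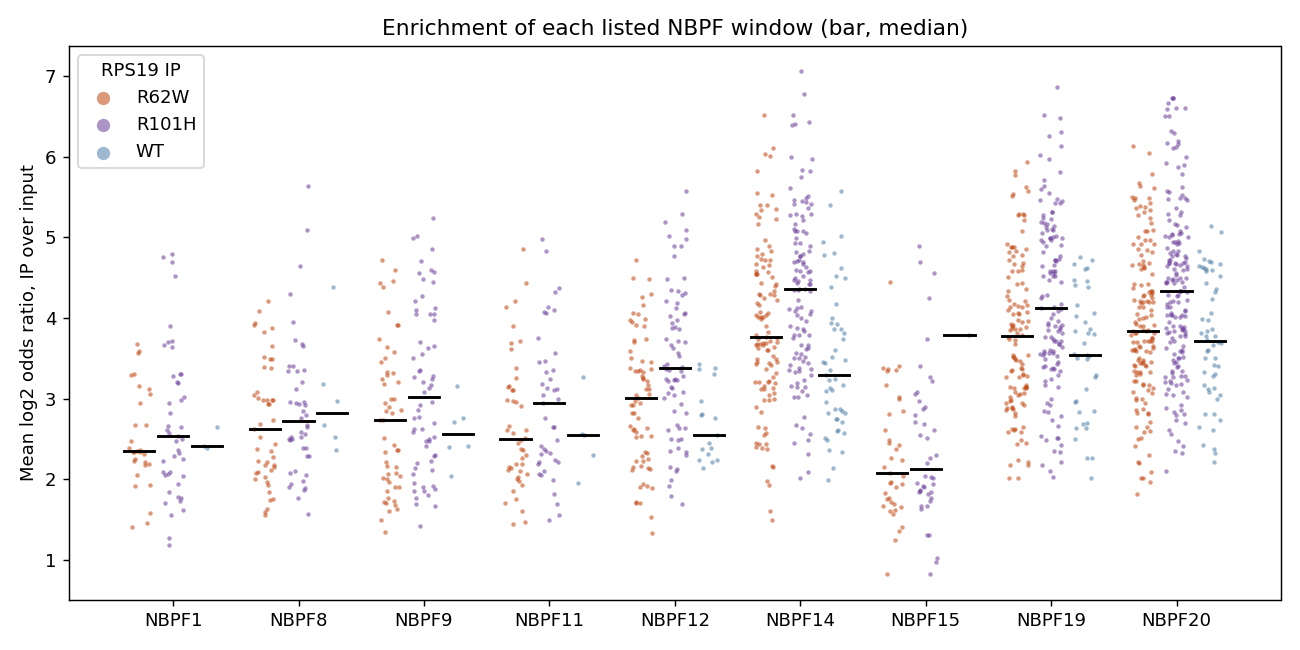
Mean log2 odds ratio of IP over input for every listed window of the 9 members with windows, for R62W, R101H and WT from left to right. Black bars are medians. NBPF14, NBPF19 and NBPF20 reach the highest values, and the windows of each gene spread over several log2 units.

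The windows with the highest values lay in NBPF14, NBPF19 and NBPF20. The top R62W window was in an intron of NBPF14 at chr1:148565310-148565408, with 300 IP and 3 input reads for R62W, 307 and 2 for R101H, and 151 and 5 for WT. Its replicate log2 odds ratios were 5.59, 6.33 and 7.62 for R62W, 6.61 and 6.94 for R101H, and 4.15, 4.27 and 6.63 for WT. One WT sample reached the values of both substitutions, so the groups overlapped. The top R101H window, also in an intron of NBPF14 at chr1:148560604-148560702, had 6.14 and 7.97 for R101H, with 5.41, 5.76 and 6.92 for R62W and 3.65, 4.58 and 6.18 for WT. Again the highest WT sample lay above the lowest of each substitution. The top WT window, in an NBPF14 intron at chr1:148555821-148555920, had 4.70, 5.34 and 6.51 for R62W, 4.76 and 5.75 for R101H, and 4.99, 5.63 and 6.09 for WT, with no input read in the WT list. There the ranges of the 3 groups overlapped widely.

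The other top windows were of the same kind. An intronic NBPF20 window at chr1:145317748-145317844 had mean log2 odds ratios of 6.13 for R62W, 6.73 for R101H and 4.62 for WT, on 1, 1 and 2 input reads. An intronic NBPF19 window at chr1:149544326-149544424 had 5.83 for R62W, 6.86 for R101H and 4.39 for WT. The highest coding window of the R62W list was in NBPF14 at chr1:148577257-148577331, with 6.11 for R62W, 5.99 for R101H and 4.50 for WT. At the other end, the NBPF windows nearest the listing threshold of a highest q of 0.2 were a lncRNA exon of NBPF8 for R62W with 45 IP and 9 input reads, a 3′ UTR window of NBPF15 for R101H with 30 and 9, and a coding window of NBPF12 for WT with 27 and 5. Windows just outside the threshold have no value in the lists.

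Intronic windows were common in the family. They made up 264 of 671 NBPF windows for R62W (39.3%, exact 95% interval 35.6 to 43.2), 300 of 738 for R101H (40.7%, 37.1 to 44.3) and 100 of 179 for WT (55.9%, 48.3 to 63.3). Over all listed windows the intron shares were 13.5% for R62W, 10.7% for R101H and 31.4% for WT. Coding windows made up 38.7%, 38.2% and 33.0% of NBPF windows, against 53.2%, 53.7% and 35.8% of all. These intervals cover counting error only, and windows of one gene are not independent. NBPF14, NBPF19 and NBPF20 held 232 of the 264 intronic windows for R62W, 268 of 300 for R101H and 98 of 100 for WT. Within these 3 genes 60.4% of windows were intronic for R62W, 63.2% for R101H and 69.5% for WT, whereas in the other members the shares were 11.1%, 10.2% and 5.26%. In these 3 genes the median log2 odds ratio was 4.04 over introns and 3.59 over coding windows for R62W, 4.45 and 4.22 for R101H, and 3.69 and 3.40 for WT. The remaining members had the opposite order, with 2.30 over introns and 3.30 over coding windows for R101H.

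The intronic windows lay at regular distances. Adjacent intronic windows were joined into runs, and most runs were short: 155 of 156 runs for R62W, 159 of 163 for R101H and 88 of 88 for WT spanned at most 200 bases. Within one annotated intron, the start of a run was 600 to 1000 bases from the start of the next in 83 of 130 gaps for R62W (63.8%), 92 of 139 for R101H (66.2%) and 30 of 69 for WT (43.5%). In all other genes this range held 16.2% of gaps for R62W, 16.4% for R101H and 15.3% for WT. A further 25.4%, 25.9% and 17.4% of NBPF gaps were 1400 to 1800 bases, against 3.76%, 4.03% and 3.94% in other genes. Gaps under 600 bases, the most frequent kind elsewhere (59.6%, 57.7% and 61.2%), were 2.31% of NBPF gaps for R62W, 4.32% for R101H and 0.0% for WT. Gaps were not independent, since they come from few genes that share sequence, and no test was made.

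NBPF14 showed the spacing most regularly. There 32 of 35 gaps for R62W, 34 of 36 for R101H and 15 of 23 for WT were 600 to 1000 bases, with medians of 796, 796 and 797 bases. In NBPF19, on the opposite strand, 23 of 36, 25 of 39 and 4 of 16 gaps were in this range, and in NBPF20 28 of 59, 33 of 63 and 11 of 30, in the order R62W, R101H and WT. The median gap was 873, 798 and 1593 bases in NBPF19 and 1400, 993 and 2337 bases in NBPF20, so NBPF14 alone had a median within 600 to 1000 bases in all 3 lists. Taking every pair of intronic windows of one gene up to 10000 bases apart, in bins of 200 bases, the fullest bin was 4600 to 4799 bases in all 3 lists, with 200 pairs for R62W, 251 for R101H and 51 for WT. The next fullest was 9400 to 9599 bases, with 182, 237 and 45 pairs, while the bin from 4400 bases held 15, 27 and 0.

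**Figure D3:**
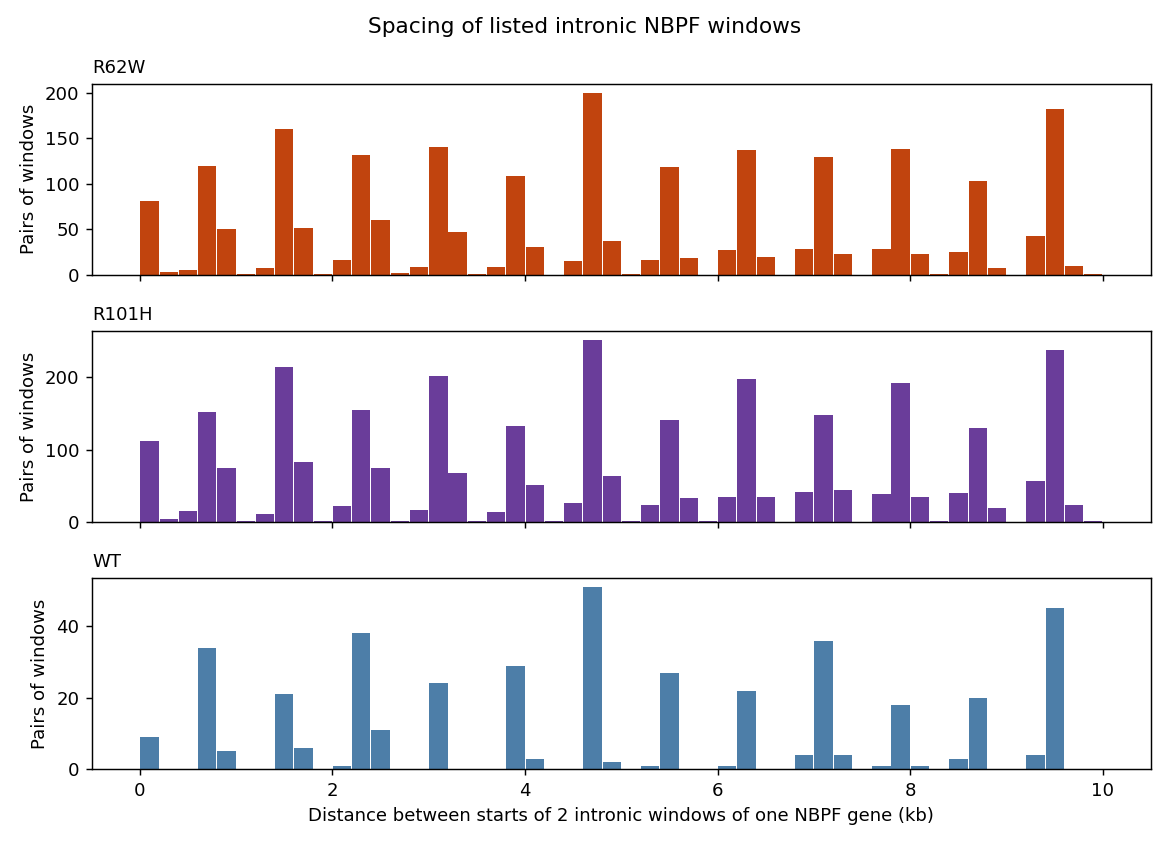
Number of pairs of listed intronic windows of one NBPF gene (vertical axis) by the distance between their starts in kb (horizontal axis, bins of 200 bases), for R62W, R101H and WT from top to bottom. Peaks recur along the axis in every list, and the highest bins are 4600 to 4799 and 9400 to 9599 bases.

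Along NBPF14 the coding windows led and the intronic windows followed. Its 2 listed 5′ UTR windows and most coding windows lay toward the 5′ end for both substitutions, the 62 R62W and 66 R101H intronic windows lay mostly in the middle and 3′ part, and 3′ UTR windows (6 for R62W and 5 for R101H) stood at the end. The WT list had the same layout with fewer windows, 17 coding and 30 intronic.

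**Figure D4:**
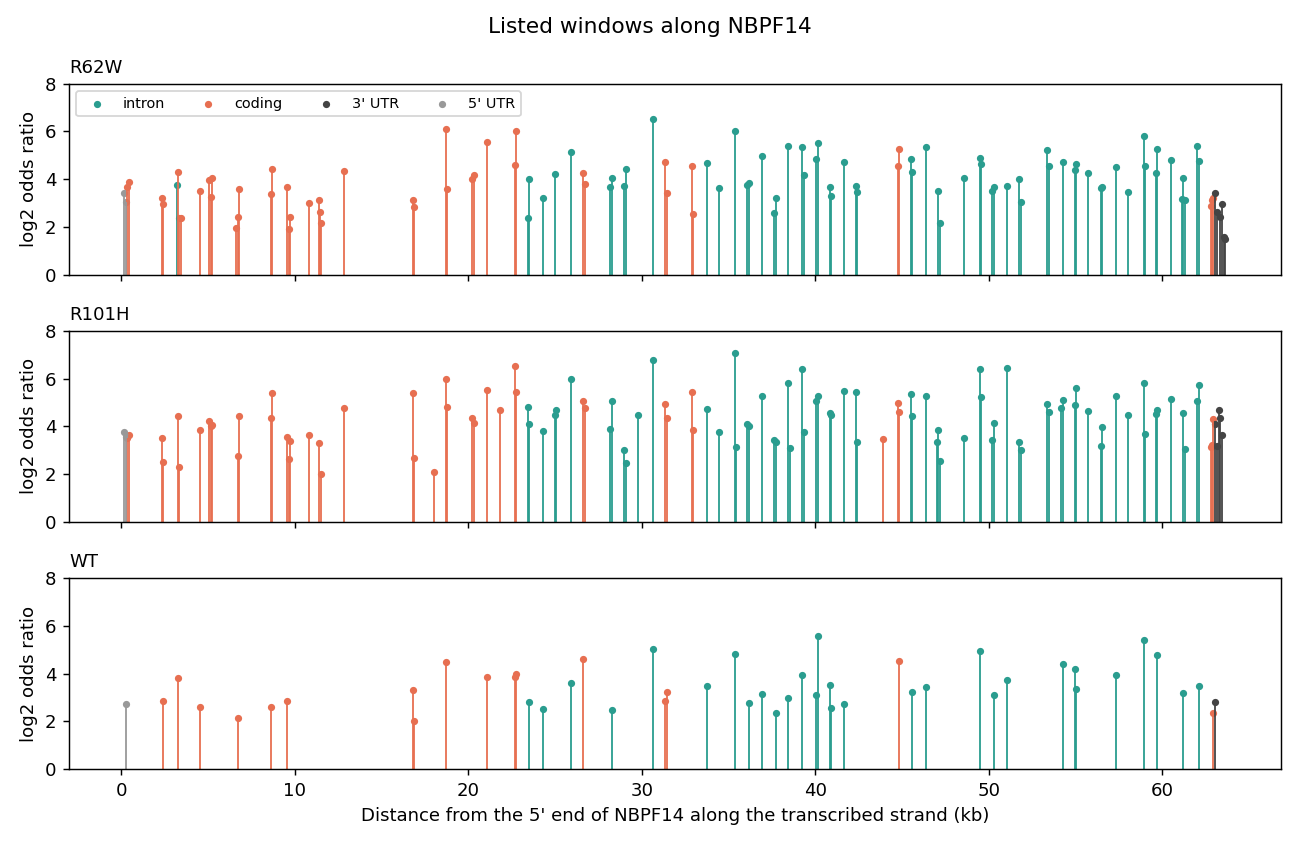
Listed NBPF14 windows for R62W, R101H and WT from top to bottom, each drawn at its distance in kb from the gene's 5′ end along the transcribed strand, with height giving the mean log2 odds ratio and colour the annotated class. Intronic windows repeat at near-even steps in the 3′ part of the gene in all 3 lists.

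Coding windows with the same length, GC content and position in the exon were grouped into sets across members. No genome was at hand to compare their sequences, so windows of a set need not repeat the same exon piece. A 52-base window with 44.2% GC recurred 11 times in 8 members for both substitutions, with log2 odds ratios from 2.64 to 4.33 for R62W and from 2.89 to 4.98 for R101H. An 86-base window with 51.2% GC recurred 11 times in NBPF11, NBPF12 and NBPF19 for R62W (2.92 to 4.86) and 12 times for R101H (3.74 to 5.80). An 87-base window with 50.6% GC recurred 9 times for R62W (2.98 to 4.73) and 14 times for R101H (3.05 to 5.08). Values of windows matched in this way thus differed by more than 1 log2 unit within each of these sets. Over all 21 such sets of at least 4 windows for R62W, 22 for R101H and 4 for WT, the pooled SD within a set was 0.756, 0.863 and 0.766. The SD over all windows in the sets was 0.886, 1.11 and 0.871, so most of the spread lay within sets. Equal IP and input counts occurred in 1 of 404 pairs of matched windows for R62W, 5 of 511 for R101H and 0 of 43 for WT.

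R62W was compared with WT over the 179 windows listed in both, which are the windows that passed in WT. The median R62W minus WT difference in log2 odds ratio was 0.81, against 0.26 over all 12263 windows listed in both. It was positive in 156 NBPF windows (87.2%) and negative in 23, against 72.4% positive over all windows. The replicate values of the groups did not overlap, with R62W higher, in 48 NBPF windows (26.8%), where the background over all windows was 24.1%, and with R62W lower in 1 window, where the background was 4.24%. Here and below, such counts use only the samples in which a window passed. Each replicate of both groups had passed in 78 of the 179 NBPF windows and 2672 of the 12263. Among these, R62W was higher without overlap in 20 NBPF windows (25.6%), where the background was 31.7%. In limma's test with Benjamini-Hochberg adjustment over all 12263 windows, 0 NBPF windows passed at 0.05, where the background was 0.0%. At an unadjusted p under 0.05, 40 NBPF windows passed, 39 of them higher for R62W, or 22.3% where the background was 10.2%. With an intensity trend in limma's prior variance the order turned, with 12 NBPF windows (6.70%) where the background was 9.08%.

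By gene, the median R62W minus WT difference was 0.87 over 54 NBPF20 windows, 0.84 over 49 NBPF14 windows, 0.82 over 38 NBPF19 windows and 0.87 over 17 NBPF12 windows. It was 0.60 over 5 windows of NBPF11, 0.51 over 6 of NBPF9 and 0.41 over 6 of NBPF8, -0.05 over 3 of NBPF1, and 0.66 in the 1 window of NBPF15. Members with more windows thus had similar medians, and those with few windows varied. The largest single differences were in introns. In NBPF14 at chr1:148557515-148557614 the values were 4.47, 5.09 and 6.62 for R62W, against 2.36 and 3.56 in the 2 WT samples in which it passed, which is 2.44 apart (SE 0.72, limma adjusted p = 0.413). The groups did not overlap. The NBPF20 window at chr1:145294863-145294961 passed in only 2 R62W and 2 WT samples. Their values were 1.81 and 2.60 for R62W, against 4.44 and 4.76 for WT, or R62W minus WT of -2.39 (SE 0.42, limma adjusted p = 0.391). This was the 1 window separated over passing samples with R62W lower, and it rests on 5 input reads for R62W and 0 for WT. The samples in which it did not pass have no value.

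R101H was compared with WT over the same 179 windows. The median R101H minus WT difference was 1.33, against 0.60 over all 11082 windows listed in both, with 167 NBPF windows positive (93.3%) and 12 negative, against 82.5% positive over all windows. Replicate values did not overlap, with R101H higher, in 100 NBPF windows (55.9%), where the background was 48.4%, and with R101H lower in 4, where the background was 3.84%. Where each replicate of both groups had passed, R101H was higher without overlap in 45 of 78 NBPF windows (57.7%), where the background was 55.5%. By limma's adjusted p over all 11082 windows, 0 NBPF windows passed, where the background was 0.0%. At an unadjusted p under 0.05, 76 NBPF windows passed, 74 of them higher for R101H, or 42.5% where the background was 21.3%. This order also turned with the intensity trend, with 29 NBPF windows (16.2%) where the background was 22.2%.

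The gene medians of R101H minus WT were 1.54 for NBPF20, 1.36 for NBPF14, 1.27 for NBPF19 and 1.42 for NBPF12. They were 1.04 for NBPF11, 0.91 for NBPF1, 0.56 for NBPF9 and 0.55 for NBPF8, so no member's median was below 0. The largest difference was in a coding window of NBPF12 at chr1:146993599-146993652, with 3.94 and 7.21 for R101H, against 2.13, 2.19 and 2.62 for WT, or 3.26 higher (SE 0.88, limma adjusted p = 0.162). R62W had 3.76, 4.39 and 5.31 there, and neither substitution overlapped WT. The input behind it was 6 reads for R62W, 3 for R101H and 10 for WT.

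**Figure D5:**
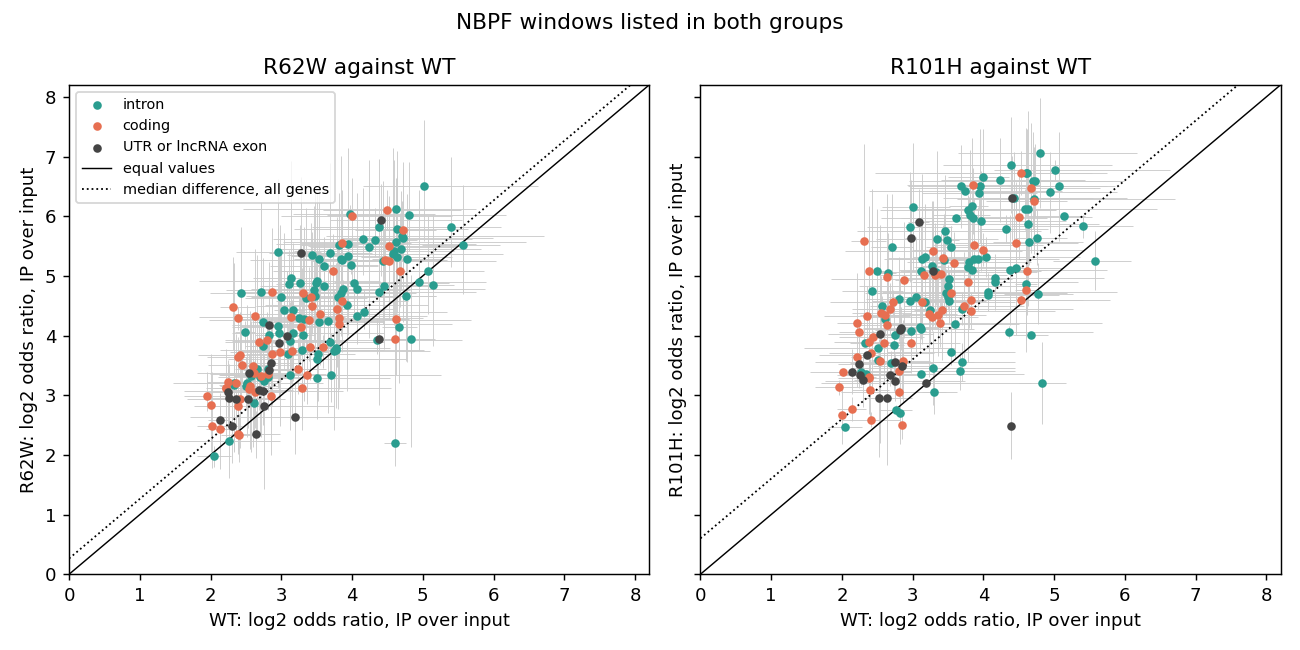
Mean log2 odds ratio of NBPF windows in the R62W list (left panel, vertical axis) and the R101H list (right panel, vertical axis) against WT (horizontal axes), with grey lines from the lowest to the highest replicate. The solid line marks equal values and the dotted line the median difference over all genes (0.26 for R62W and 0.60 for R101H). Most points lie above both lines, and the grey lines are long relative to the offset.

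The fit was also limited to windows in which each replicate of both groups had passed, which left 78 NBPF windows. For R62W minus WT 0 of them passed limma's adjusted p, where the background was 0.0374%, although 23 had an unadjusted p under 0.05, where the background was 26.9%. For R101H minus WT 8 of the 78 passed, all higher for R101H, where the background was 18.2%, and 38 had an unadjusted p under 0.05 (48.7%), where the background was 44.5%. Their adjusted p ran from 0.0456 to 0.0492, and 4 were in NBPF20, 2 in NBPF14 and 1 each in NBPF19 and NBPF8. The intronic NBPF19 window at chr1:149514227-149514326 had 5.42 and 5.78 for R101H, against 3.32, 3.50 and 3.65 for WT, or 2.11 higher (SE 0.32, limma adjusted p = 0.0456). R62W had 4.63, 4.75 and 5.28 there, so the 3 groups did not overlap. The intronic NBPF20 window at chr1:145379594-145379693 had 5.09 and 7.23 for R101H, against 2.57, 2.91 and 3.52 for WT, or 3.16 higher (SE 0.68, limma adjusted p = 0.0456). Among windows with at least 10 input reads in both lists, 0 of 8 NBPF windows passed for R62W minus WT, where the background was 0.0131%, and 1 of 3 for R101H minus WT, where the background was 9.42%. With each group centred on its median over the windows tested, 0 of the 78 NBPF windows passed, with a lowest adjusted p of 0.210.

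Class by class, the gap between NBPF medians and those of all windows was widest in introns, as a description without a test. Over 100 intronic NBPF windows the median R62W minus WT difference was 0.84, against -0.09 over all 2358 intronic windows listed in both. The median R101H minus WT difference was 1.42 over the same windows, against 0.03 over 1629. Over 59 coding NBPF windows the medians were 0.81 for R62W minus WT and 1.37 for R101H minus WT, against 0.33 and 0.63 over all coding windows. Both comparisons share the WT samples, so these values are not independent of each other. In the 9 NBPF 3′ UTR windows R62W exceeded WT in 9 and R101H exceeded WT in 9, with medians of 0.69 and 1.27. Over all 3′ UTR windows 81.7% were higher for R62W and 91.7% for R101H, with medians of 0.36 and 0.80.

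R101H and R62W could be compared over 608 NBPF windows. The median R101H minus R62W difference was 0.37, against 0.21 over all 59874 windows listed in both, with 445 NBPF windows positive (73.2%) and 163 negative, against 71.8% positive over all windows. Among the 43 NBPF windows with at least 10 input reads in both lists the median was -0.00049. Replicate values did not overlap, with R101H higher, in 105 NBPF windows (17.3%), where the background was 17.9%, and with R101H lower in 18 (2.96%), where the background was 3.59%. These shares were near those of all windows. Where each replicate of both groups had passed, R101H was higher without overlap in 72 of 470 NBPF windows (15.3%), where the background was 19.2%. By limma's adjusted p 0 NBPF windows passed, where the background was 0.0%, and 49 had an unadjusted p under 0.05 (8.06%), where the background was 1.8%. With the intensity trend it was 10 windows (1.64%), where the background was 1.55%, and with at least 10 input reads it was 0 of 43, where the background was 2.81%.

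The gene medians of R101H minus R62W ran from 0.11 over 34 NBPF15 windows to 0.49 over 147 NBPF20 windows. The largest difference was in an NBPF14 intron at chr1:148544885-148544984, with 6.38 and 6.48 for R101H, against 2.41, 4.02 and 4.78 for R62W, or 2.69 higher (SE 0.69, limma adjusted p = 1.00). The WT samples in which it passed had 2.38 and 5.11, overlapping R62W but not R101H. The NBPF20 window at chr1:145294863-145294961, where the passing R62W samples lay below the passing WT samples, had 3.92 and 5.80 for R101H, which overlapped WT. The largest difference in the other direction was in a coding window of NBPF11 at chr1:148123924-148123995. It had 2.31 and 2.45 for R101H, against 4.32 and 5.41 in the 2 R62W samples in which it passed (-2.48, SE 0.49, limma adjusted p = 1.00). It had 4 input reads for R101H and 0 for R62W.

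The deposited input counts of NBPF windows differed between the R62W and WT lists where those of other genes were mostly equal. Where each replicate of both groups had passed, the pooled input count was the same in both lists for 19 of 78 NBPF windows (24.4%, exact 95% interval 15.3 to 35.4), against 2110 of 2594 windows of other genes (81.3%, 79.8 to 82.8). With at most 10 input reads the shares were 18 of 71 (25.4%) and 488 of 550 (88.7%). Summed input was nevertheless alike, with 414 reads for R62W and 403 for WT over the 78 windows, and no NBPF count differed by more than 5. In windows of other duplicated gene families, 4 of 42 inputs were the same (9.52%, 2.66 to 22.6). The symbols searched were NPIP, GOLGA6, GOLGA8, RGPD, TBC1D3, LRRC37, SPDYE and PMS2P. No GOLGA6, TBC1D3 or SPDYE gene had a listed window, and no RGPD gene had a WT window. Counted by gene, these families had 79 WT windows, 45 of them in NPIPA1 and 18 in NPIPA9. The input for R101H summed to 280 reads in the 78 NBPF windows listed in every replicate, 0.695 times that for WT, and was 0.664 times over all such windows. Which part these input differences have in the enrichment differences was not tested.

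Outside the 10 members, 3 of 16 other NBPF genes had listed windows. NBPF26 had 25 windows for R62W, 31 for R101H and 5 for WT, NBPF25P had 13, 20 and 0, and NBPF3, which lies far from 1q21 on the short arm, had 2, 6 and 0. Their median log2 odds ratios for R101H were 3.37, 3.25 and 2.48. Of 28 genes chosen by name as 1q21 neighbours, whose positions were not checked, 21 had listed windows. They had 207 for R62W, 227 for R101H and 30 for WT. The median over these genes' medians was 1.99 over 18 genes for R62W, 2.00 over 20 for R101H and 1.85 over 6 for WT. These were near the values of all windows. Genes of other duplicated families reached values as high as the NBPF members. NPIPA7 had medians of 4.20 over 8 windows for R62W, 4.74 over 9 for R101H and 3.19 over 4 for WT, and NPIPA5 had 3.75 over 12, 4.74 over 12 and 2.83 over 6. The median of gene medians in these families was 2.20 over 16 genes for R62W, 2.12 over 18 for R101H and 2.11 over 9 for WT. Among 2835 genes with at least 20 windows, the split of windows over the R62W, R101H and WT lists (42.3%, 46.5% and 11.3% in the NBPF members pooled) was most like that of ZC3H4, THRAP3, LRRC14, ARPC4-TTLL3 and EMD, at Euclidean distances from 0.0034 to 0.0082 between shares taken as fractions. This likeness is of list lengths alone.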

How the data were processed

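eCLIP libraries of 8 IP samples and 3 inputs were analysed from 3 deposited window tables, 1 per IP group. Reads were processed with fastp and STAR on GRCh38, per the submitters' processing notes, while the sources used here name neither the window caller nor the handling of reads that match several places. The deposited counts are whole reads per window, summed over replicates per the file headers, which do not say whether samples that did not pass are included. Over all windows listed for R62W and WT, summed input for R62W was 1.25 times that for WT. Where every replicate of both groups had passed it was 1.00 times. Counts of one window in different lists may thus rest on different numbers of samples. The deposited log2 odds ratios are the authors' lowest, mean and highest over the samples in which a window passed, the p-values and q-values come from the authors' test of enrichment, and the deposited fraction is the GC fraction of a window. Another deposited column gives the number of samples in which a window passed. Every window in the lists had q under 0.2 and at least 2 passing samples. Repeat element tables were not used here, and library totals are not given in the tables.

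Windows were kept where a gene name was one of the 10 members. Replicate values follow from the lowest, mean and highest, without sample numbers. Windows listed in both groups were fitted with limma 3.58.1 in R 4.3.3 (lmFit, eBayes, two-sided), adjusted by Benjamini-Hochberg over all such windows at 0.05, after a test on simulated data. In a window that passed in only 2 of 3 samples, the fit used those 2. Nothing in the labels says that samples of a group were separate cultures. The p-values then reflect only how far these samples differ, which may be technical. Other steps used pandas 2.3.3, numpy 2.4.6, scipy 1.17.1 and matplotlib 3.10.9. Intervals of shares are exact (Clopper-Pearson, 95%) and leave out the spread between samples. Gene spans and sequences are RefSeq's on GRCh38.p14.

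Named were all members, the 3 windows with the highest mean per list, the 3 with the largest difference per comparison, windows listed in all 3 groups, other NBPF genes, 1q21 neighbours, other duplicated families and the 5 genes most like the members in pattern. TBC1D31 and TBC1D32 start with the same letters as TBC1D3 but were left out of its family. Members and lists were chosen with earlier results of these data known. Alternatives changed the q threshold, the samples in which a window passed, the input minimum, centring, the variance prior, the replicate summary and the counting of copies.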

Additional observations from a re-analysis of the deposited data

How the results depend on the processing

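With a highest q of at most 0.05, 410 of 671 NBPF windows stayed listed for R62W, 582 of 738 for R101H and 75 of 179 for WT. Over all windows, 22616 of 86567 stayed for R62W, 43148 of 93331 for R101H and 2987 of 15402 for WT. With an input count of at least 10, 124 stayed for R62W, 53 for R101H and 11 for WT, and 78 WT windows were enriched in every replicate. This minimum applies to pooled counts, which may cover different numbers of samples in different lists. Among windows enriched in every replicate, 8 of 78 NBPF windows passed limma's adjusted threshold for R101H minus WT, where the background was 18.2%. With each group also centred on its median, 0 of the 78 passed, and 0 of all 2730 windows. With an input of at least 10 it was 1 of 3, where the background was 9.42%. Over the alternatives run on it, the NBPF median difference ran from 0.68 to 0.96 for R62W minus WT. It ran from 1.08 to 1.50 for R101H minus WT. For R101H minus R62W it ran from -0.00049 to 0.52, with the lowest value from the 43 windows with an input of at least 10. Centring was not run on this median, so the ranges do not cover it. In single windows centring lowered the difference. For R62W minus WT it went from 2.44 to 2.13 in the NBPF14 window starting at chr1:148557515. For R101H minus WT it went from 3.26 to 2.65 in the NBPF12 window starting at chr1:146993599. The causes were not tested. Counting windows of the same length, GC, class and position once, or leaving out each gene in turn, was chosen after seeing the data. The count was then 480 for R62W, 526 for R101H and 153 for WT. Counting windows of the same genome sequence once was not run, since no genome was used here.

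No paired analysis was possible because the columns carry no replicate numbers. Samples were not left out in turn for the same reason, and the lowest and highest replicate values were compared instead. Low input counts limit the precision of the NBPF values.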
